A study of Homo sapiens with 12 samples.

Results

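A run of 6 neighbouring genes on the long arm of human chromosome 6 (6q25) was followed through 12 RNA-seq libraries: AKAP12, ZBTB2, RMND1, ARMT1, CCDC170 and ESR1. They are 6 of the 26641 genes in the count table, matched by gene name, and they are the 6 genes of that table whose canonical start lies within 500 kb of a group of guide matches inside ARMT1. The genes were taken up with the results of recruitment in these libraries already known. Their changes upon recruitment are therefore given as description, and no test is read from them.

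All libraries came from NCCIT, a human embryonal carcinoma cell line, in which a doxycycline-inducible dCas9 (Cas9 without nuclease activity) was fused either to VPR, a transcriptional activator (CRISPRa), or to KRAB, a transcriptional repressor domain (CRISPRi). Each of the 6 lines also carried 1 of 3 guide arrays, and poly(A) RNA was taken from 2 replicates per line after 4 days of doxycycline. In the LTR5HS Sp array, guides against LTR5HS, the long terminal repeat of a family of endogenous retroviruses, sit on the S. pyogenes scaffold, and these are called recruitment libraries (2 per fusion). The controls (4 per fusion) were the LTR5HS Sa array, which carries LTR5HS guides on the S. aureus scaffold, and the nontarget Sp array, whose guides were designed to match nowhere in the human genome. Every line, control or not, thus expressed a dCas9 fusion and an array after doxycycline. Each pairing of fusion and array was present in 1 line only. Neither the fusion nor the array can therefore be told apart from the line that carries it. The 2 recruitment libraries of a fusion are replicates of 1 line, and its 4 controls are 2 replicates of each of 2 lines.

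Long terminal repeats hold binding sites for transcription factors and can act on host genes from a distance, as promoters or as enhancers. KRAB brings in corepressors that establish repressive chromatin, while VPR brings in the transcription machinery. ARMT1 and RMND1 lie head to head, an arrangement in which a pair of genes is transcribed outwards from a shared stretch of DNA. ARMT1 encodes a protein reported as a protein-glutamate methyltransferase, and RMND1 a protein of the inner mitochondrial membrane that is needed for translation in mitochondria. ESR1 encodes estrogen receptor alpha, best known from breast and uterus.

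The guides that match this region exactly are shown first. Sites with mismatches, which the study counts among possible off-targets, were not searched for. The LTR5HS array holds 12 guides of 16 nt, as the study lists them. On chromosomes 1 to 22, X and Y of hg38 there were 2938 exact matches followed by an NGG motif. Only 6 of them, from 6 different guides, fell between positions 150239967 and 153129619 of chromosome 6, which spans the 6 genes and their surroundings. They form 1 group of 486 bp at chr6:151455364-151455849, within intron 2 of the 4 introns of the canonical ARMT1 transcript (GENCODE annotation) and 3140 bp downstream of its start. The centre of the group lies inside an LTR5HS copy. The guides follow 5′ to 3′ in lower case, with the adjacent NGG of the genome in capitals:
LTR5HS-1: tactaagggaactcagAGG
LTR5HS-2: aaaaccgccttagggcTGG
LTR5HS-9: gacattccattgcccaGGG
LTR5HS-8: taaagggtctgtgctgAGG
LTR5HS-4: agcccgacacccgtaaAGG
LTR5HS-7: aaccttggacaataccTGG

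In the order shown, the guides matched at chr6:151455364-151455379, chr6:151455592-151455607, chr6:151455652-151455667, chr6:151455744-151455759, chr6:151455757-151455772 and chr6:151455834-151455849. LTR5HS-9 and LTR5HS-7 matched the plus strand and the other 4 the minus strand. The matches are a property of the sequence. The centre of the group also lies inside a dCas9 peak of the study's list, which came from separate ChIP-seq and was used here for this overlap alone.

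Around this group the genes are arranged as follows on hg38. RMND1 occupies chr6:151398898-151452158 on the minus strand and ARMT1 chr6:151452258-151470101 on the plus strand, with canonical starts 340 bp apart. AKAP12 (chr6:151239967-151358559, plus strand) starts 215.6 kb before the centre of the group, and ZBTB2 (chr6:151364115-151391559, minus strand) 64.0 kb before it. CCDC170 (chr6:151494017-151621193, plus strand) starts 38.4 kb beyond the centre. ESR1 (chr6:151656691-152129619, plus strand) has its canonical start 352.1 kb beyond it. Among these genes, exons overlapped another annotated gene only in ESR1, over 135 bp.

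The bases between the annotated ends of RMND1 and ARMT1 are shown because these were the members with the lowest counts relative to control upon dCas9-KRAB recruitment. This stretch, chr6:151452159-151452257 on the plus strand of hg38, has 99 bases and a GC content of 65.7%. Capitals mark CACGTG, the E box:
RMND1-ARMT1: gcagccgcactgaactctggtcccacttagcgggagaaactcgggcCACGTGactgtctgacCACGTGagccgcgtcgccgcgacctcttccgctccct

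Of 5 motifs looked for on both strands, 4 were searched first, and none of these 4 occurs in the 99 bases. They were the GC box GGGCGG, the ETS core CCGGAAG, the CCAAT box and the palindromic NRF1 motif, given by name. CACGTG was added only after the sequence had been read. It occurs 2 times, and 3.4% of 35116 RefSeq promoter windows of that length hold it, but a motif picked from the sequence it is then counted in supports nothing. The 4 motifs had first been searched in the wider RefSeq promoter window of RMND1, 300 bases long (GRCh38.p14), which was shortened here to leave out bases within the annotated genes. In that window CCGGAAG occurs 2 times (10.3% of windows hold it), GGGCGG 1 time (45%), CCAAT 1 time (34.6%) and the NRF1 motif 0 times (1.24%). These are matches of letters and not binding sites.

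Library totals ran from 13601701 to 69797411 counts, with a median of 18256928. Replicate 2 of nontarget Sp with dCas9-KRAB was by far the deepest, at 3.84 times the median over the other libraries. Values are CPM, the usual expression of counts relative to library size, with the size scaled by TMM factors, and 3 counts correspond to between 0.0462 and 0.233 CPM. All 12 embryonal carcinoma markers were at 1 CPM or more in every library, but their levels were not uniform. NANOG ran from 1.05 to 185.9 CPM and POU5F1 from 9.76 to 112.3 CPM, while LIN28B ran from 63.7 to 130.0 CPM.

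With dCas9-KRAB at LTR5HS, ARMT1 and RMND1 were far below their controls. ARMT1 stood at 18.4 and 13.5 CPM with recruitment. In the dCas9-KRAB controls it stood at 293.6 and 348.6 CPM (LTR5HS Sa) and at 413.1 and 346.5 CPM (nontarget Sp). The groups were far apart, with means of 15.96 ± 3.49 CPM (SD, n = 2) and 350.4 ± 48.9 CPM (SD, n = 4). The log2 fold change was -4.44 (SE 0.198), or 21.7-fold lower, which ranked 24 from the lowest among the 15520 genes tested.

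RMND1 followed in the same direction. It stood at 15.7 and 11.1 CPM with recruitment. In the controls it stood at 68.4 and 58.8 CPM (LTR5HS Sa) and at 94.99 and 90.2 CPM (nontarget Sp). Both recruitment libraries lay below every control, at 13.4 ± 3.25 CPM (SD, n = 2) against 78.1 ± 17.3 CPM (SD, n = 4). The log2 fold change was -2.53 (SE 0.236), or 5.76-fold lower.

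**Figure D1:**
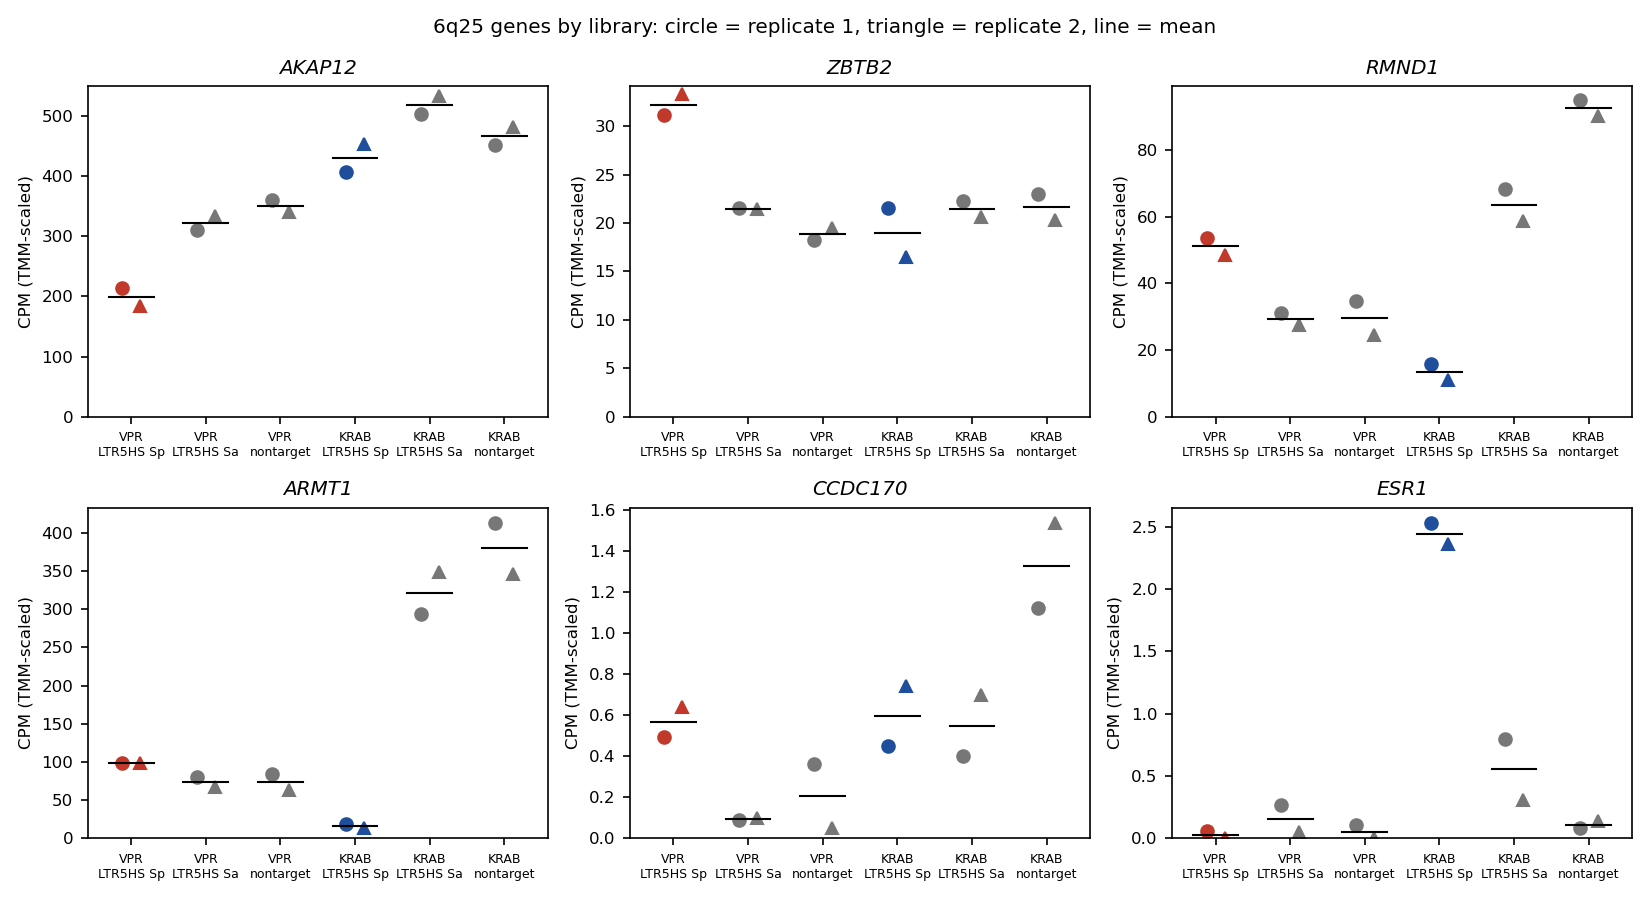
CPM of the 6 genes in each of the 12 libraries, 1 panel per gene with its own linear axis from 0; circles are replicate 1, triangles replicate 2, lines the mean of the 2 replicates, and recruitment is in color. ARMT1 sits at 13.5 and 18.4 CPM with dCas9-KRAB recruitment and at 293.6 CPM or more in the dCas9-KRAB controls, while ESR1 is above 2 CPM only with dCas9-KRAB recruitment.

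With dCas9-VPR the same pair was higher than in its own controls, by much less. ARMT1 stood at 98.1 and 99.2 CPM with recruitment. In the dCas9-VPR controls it stood at 80.7 and 66.8 CPM (LTR5HS Sa) and at 83.9 and 62.6 CPM (nontarget Sp). The groups did not overlap, and the log2 fold change was 0.43 (SE 0.137), or 1.35-fold. Of the members past the threshold in this comparison, ARMT1 had the smallest change, and it was no longer past it without either recruitment library (0.45 without replicate 1 and 0.42 without replicate 2), without LTR5HS Sa replicate 1 (0.49) or replicate 2 (0.39), or without nontarget Sp replicate 2 (0.36).

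RMND1 stood at 53.6 and 48.7 CPM with dCas9-VPR recruitment. In the controls it stood at 31.1 and 27.5 CPM (LTR5HS Sa) and at 34.8 and 24.7 CPM (nontarget Sp). The recruitment libraries were above all 4 controls, with a log2 fold change of 0.80 (SE 0.149), or 1.74-fold. Without recruitment replicate 1 the value was 0.74 and no longer past the threshold.

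ZBTB2, which encodes a zinc finger regulator of transcription, was higher with dCas9-VPR recruitment. It stood at 31.1 and 33.3 CPM, against 21.5 and 21.4 CPM with LTR5HS Sa and 18.2 and 19.5 CPM with nontarget Sp. The groups did not overlap, and the log2 fold change was 0.68 (SE 0.131). Without recruitment replicate 2 it was 0.63 and no longer past the threshold. In the dCas9-KRAB lines ZBTB2 stood at 21.6 and 16.5 CPM with recruitment, against 22.3 and 20.6 CPM with LTR5HS Sa and 23.0 and 20.3 CPM with nontarget Sp. These groups overlapped, and the log2 fold change was -0.17 (SE 0.151).

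AKAP12, a scaffold that anchors protein kinase A, was the member past the threshold that was lower with dCas9-VPR recruitment. It stood at 214.3 and 184.3 CPM with recruitment, against 309.6 and 333.8 CPM with LTR5HS Sa and 359.3 and 340.4 CPM with nontarget Sp. Both recruitment libraries were below every control, with a log2 fold change of -0.74 (SE 0.106). In the dCas9-KRAB lines it stood at 406.8 and 452.0 CPM with recruitment, against 502.3 and 531.7 CPM with LTR5HS Sa and 451.9 and 480.9 CPM with nontarget Sp. The highest recruitment value there was just above the lowest control, and the log2 fold change was -0.18 (SE 0.108).

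CCDC170, whose product binds microtubules at the Golgi, was close to the limit of detection. Its counts were 9 and 12 with dCas9-VPR recruitment, against 2 and 2 with LTR5HS Sa and 7 and 1 with nontarget Sp. In the dCas9-KRAB lines its counts were 8 and 11 with recruitment, 7 and 9 with LTR5HS Sa, and 27 and 100 with nontarget Sp. The count of 100 came from the deepest library and was 1.54 CPM. The dCas9-KRAB groups overlapped in CPM (log2 fold change -0.77, SE 0.548), and the gene did not pass the filter on low counts among the dCas9-VPR libraries.

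ESR1 was below 1 CPM in every library except those with dCas9-KRAB recruitment. There it had 45 and 35 counts, or 2.53 and 2.36 CPM. The dCas9-KRAB controls had 14 and 4 counts with LTR5HS Sa (0.799 and 0.310 CPM) and 2 and 9 counts with nontarget Sp (0.0830 and 0.139 CPM). Both recruitment libraries were above every control, and the log2 fold change was 3.12 (SE 0.611). It was 2.07 with LTR5HS Sa alone as control, 4.30 with nontarget Sp alone and 3.99 without LTR5HS Sa replicate 1, all past the threshold. The gene passed the filter on low counts through the recruitment group alone. It was no longer past the threshold without recruitment replicate 1 (3.06) or replicate 2 (3.15) or without nontarget Sp replicate 2 (2.67). In the dCas9-VPR lines its counts were 1 and 0 with recruitment, 6 and 1 with LTR5HS Sa, and 2 and 0 with nontarget Sp, so that no difference could be detected at this depth.

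Of the 6 genes, 4 passed the filter in the dCas9-VPR lines and all 4 were past an adjusted p of 0.05 in edgeR, 3 higher and 1 lower, where 28.0% of all genes tested were (15.7% higher and 12.3% lower). In the dCas9-KRAB lines 6 passed the filter and 3 were past the threshold, 1 higher and 2 lower, where 2.77% of all genes tested were (0.831% higher and 1.94% lower). With dCas9-VPR, 42.0% of all genes tested changed at least as much as ARMT1, 27.5% as ZBTB2, 25.2% as AKAP12 and 23.2% as RMND1. For the members past the threshold with dCas9-KRAB the shares were 0.187% (ARMT1), 0.657% (ESR1) and 1.02% (RMND1). The genes were chosen with these contrasts known, so nothing is read from the counts or from these shares. The median log2 fold change over the genes tested was 0.56 with dCas9-VPR, beside -0.02 over all genes tested, and -0.48 with dCas9-KRAB.

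**Figure D2:**
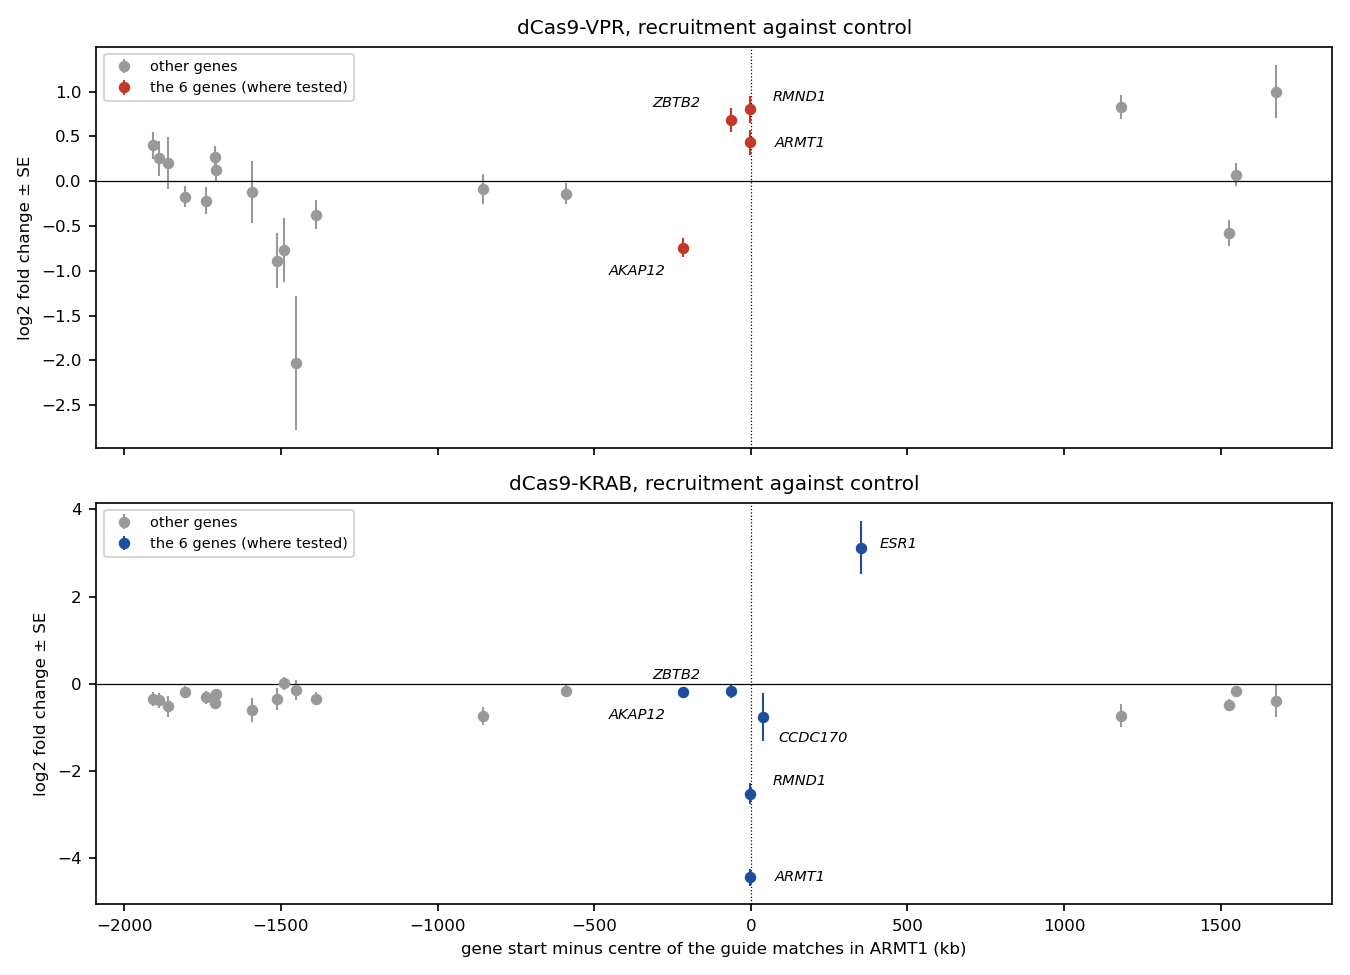
log2 fold change ± SE of recruitment against control (vertical, linear) by distance of the gene start from the centre of the guide matches in ARMT1 in kb (horizontal), with dCas9-VPR above and dCas9-KRAB below; members are colored and other genes within 2000 kb are grey. With dCas9-KRAB, ARMT1 (-4.44) and RMND1 (-2.53) lie at the dotted line and ESR1 (3.12) at 352.1 kb.

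Outside the members, the nearest genes of the table were MTHFD1L, which encodes a mitochondrial folate enzyme and starts 589.9 kb before the group, and PLEKHG1, at 855.7 kb before it. With dCas9-KRAB their log2 fold changes were -0.16 (SE 0.135) and -0.73 (SE 0.208), and neither was past the threshold. Of a list of 35 genes of the surrounding region, these included, 24 were tested, and 0 were past an adjusted p of 0.05 in edgeR with dCas9-KRAB. At an unadjusted p of 0.05, 9 of them were, and DESeq2 called 2, where it called 716 of all 15520 genes. No share of all genes was taken at that unadjusted p, so the 9 cannot be set against a background. The median over the 24 was -0.31, beside 0.000596 over all genes tested.

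With dCas9-VPR, 4 of these 24 genes rose and 2 fell in the main edgeR fit, a share near the background of 28.0%. With the replicate number as a block, 8 of the 24 were past the threshold, and DESeq2 called 5. Of all 16271 genes, 4961 were past it with the block and DESeq2 called 4767. SYNE1, a nuclear envelope spectrin repeat protein, rose by 0.83 (log2, SE 0.136, edgeR adjusted p = 0.00279). RGS17, a regulator of G protein signalling, rose by 1.00 (SE 0.294, edgeR adjusted p = 0.0359). IPCEF1 rose by 1.07 (SE 0.340, edgeR adjusted p = 0.0477) and SCAF8 by 0.35 (SE 0.0987, edgeR adjusted p = 0.0315). The 2 that fell were FBXO5, an inhibitor of the anaphase-promoting complex (-0.58, SE 0.146, edgeR adjusted p = 0.0198), and CNKSR3 (-0.74, SE 0.204, edgeR adjusted p = 0.0282). The nearest of these 6 to the guide matches in ARMT1 was SYNE1, which starts 1181.8 kb beyond them. RGS17, IPCEF1, CNKSR3 and SCAF8 start beyond position 153129619, where guide matches were not placed. Other matches may thus lie closer to them.

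Setting the fusions side by side, the difference of the recruitment effects (dCas9-VPR minus dCas9-KRAB, log2) was 4.87 for ARMT1 (SE 0.235) and 3.30 for RMND1 (SE 0.234). It was 0.86 for ZBTB2 (SE 0.187) and -0.56 for AKAP12 (SE 0.132). CCDC170 (2.51, SE 0.740) and ESR1 (-4.77, SE 1.48) rest on dCas9-VPR libraries with at most 12 and 6 counts. These values repeat the contrasts with which the genes were chosen, so nothing is read from their calls: 6 by edgeR, where 26.0% of all genes tested were past the threshold, and 5 by DESeq2, which did not call CCDC170. CCDC170 was also no longer past the threshold in edgeR without dCas9-VPR recruitment replicate 1 (2.67) or 2 (2.32), dCas9-VPR LTR5HS Sa replicate 1 (2.47) or 2 (2.54), or dCas9-KRAB recruitment replicate 1 (2.15), LTR5HS Sa replicate 2 (2.30) or nontarget Sp replicate 2 (2.36), and it was 3.45 without dCas9-VPR nontarget Sp replicate 1. ESR1 was no longer past it without dCas9-VPR recruitment replicate 2 (-3.87), LTR5HS Sa replicate 1 (-3.96) or nontarget Sp replicate 1 (-3.08). The same held without dCas9-KRAB recruitment replicate 1 (-4.74) or 2 (-4.82). Without dCas9-VPR recruitment replicate 1 the ESR1 value was -7.36. The recruitment library then left had 0 ESR1 counts, as had the nontarget Sp library left for the -3.08. The size of both values is therefore set by the fit and not by counts. AKAP12 was no longer past the threshold without dCas9-VPR recruitment replicate 2 (-0.45).

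The level of the members also differed between the control lines. The same control libraries entered the contrasts with which the genes were chosen, so these differences are given as description too. ARMT1 averaged 350.4 CPM in the 4 dCas9-KRAB controls and 73.5 ± 10.4 CPM (SD, n = 4) in the 4 dCas9-VPR controls, without overlap. The difference was 2.22 on the log2 scale (SE 0.129). RMND1 was also higher in the dCas9-KRAB controls, by 1.36 (SE 0.144). The dCas9-VPR recruitment libraries, although above their own controls, lay below every dCas9-KRAB control for both genes.

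AKAP12 was higher in the dCas9-KRAB controls by 0.52 (SE 0.0782). ZBTB2 differed by 0.07 (SE 0.108), with overlapping groups. CCDC170 and ESR1 did not pass the filter. Of the 4 members tested 3 were past the threshold in edgeR, as were 57.8% of all genes tested, and of those 15448 genes 3.97% differed by as much as ARMT1 in either direction. The summed level of the 12 embryonal carcinoma markers moved with the fusion as well, from 1395 to 2225 CPM in the dCas9-VPR controls and from 5954 to 7437 CPM in the dCas9-KRAB controls, and its part in these differences was not tested.

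**Figure D3:**
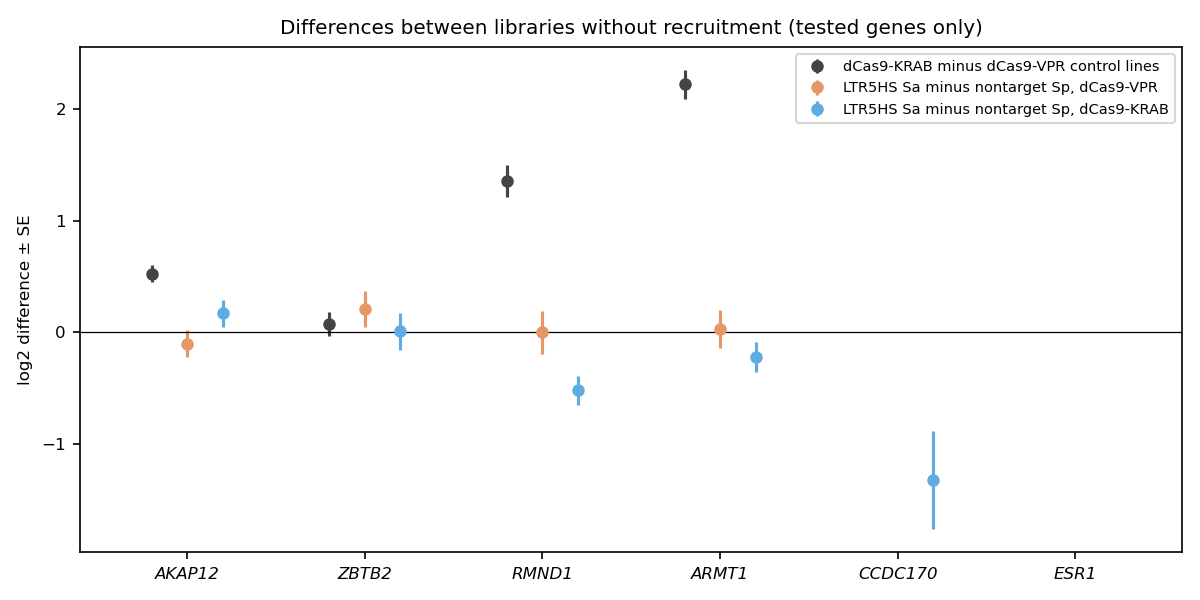
log2 difference ± SE (vertical, linear) for each gene tested (horizontal) between libraries without recruitment: dCas9-KRAB minus dCas9-VPR controls, and LTR5HS Sa minus nontarget Sp within each fusion. ARMT1 (2.22) and RMND1 (1.36) differ most between the fusions; ESR1 was tested in none of the 3 and CCDC170 in 1.

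The 2 control arrays were then compared within each fusion, a difference that did not enter the choice of genes. With dCas9-VPR, 0 of the 4 members tested differed by edgeR, 0 at an unadjusted p of 0.05 and 0 by DESeq2, where 4.46% of all genes tested did by edgeR. ARMT1 differed by 0.03 (SE 0.173) and RMND1 by -0.0038 (SE 0.191). With dCas9-KRAB, 0 of 5 differed by edgeR, where 1.46% of all genes did, but 2 had an unadjusted p under 0.05 and DESeq2 called 1. Of all 15514 genes DESeq2 called 298, and no share was taken at the unadjusted cut. RMND1 was lower with LTR5HS Sa by 0.52 (log2 difference -0.52, SE 0.131, edgeR adjusted p = 0.0674). The 2 arrays did not overlap, but with 2 libraries each such separation says little by itself.

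With the replicate number as a block, RMND1 (-0.53, SE 0.117, edgeR adjusted p = 0.000257) and CCDC170 (-1.27, SE 0.396, edgeR adjusted p = 0.0189) were past the threshold, where 11.2% of all genes were. ARMT1 was -0.22 (SE 0.134) without the block and was not past the threshold in either fit. The difference in RMND1 between the control arrays was small beside the -2.53 seen upon recruitment.

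Per kilobase of gene length, which allows levels to be compared between genes, ARMT1 was the highest of the 6 in the dCas9-KRAB controls at 134.6 ± 18.8 CPM per kb (SD, n = 4). AKAP12 followed at 55.9 ± 3.84 and RMND1 at 39.0 ± 8.64 CPM per kb. ZBTB2 was at 6.65 ± 0.400, CCDC170 at 0.178 ± 0.0942 and ESR1 at 0.0477 ± 0.0467 CPM per kb, and the last pair in that order were within a few SDs of each other. With dCas9-KRAB recruitment ARMT1 (6.13 ± 1.34) and RMND1 (6.71 ± 1.62, SD, n = 2) were level with ZBTB2 (5.86 ± 1.11), within their spread.

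Genes whose levels followed these members were ranked by Pearson's r of log2 CPM over the 12 libraries, which share fusion and line. Among 14553 other genes, WDHD1 was closest to ARMT1 (r = 0.987), followed by TRIP13 (0.974), DSTNP2 (0.970), RMND1 (0.963) and WTAP (0.958). For RMND1 the order was PROM1 (0.967), TRIP13 (0.966), ARMT1 (0.963), DSTNP2 (0.958) and SLC35A5 (0.954). AKAP12 reached 0.242 and ZBTB2 0.246 with ARMT1, and 0.073 and 0.425 with RMND1. The 12 libraries include the recruitment libraries with which the genes were chosen, so the r of this pair restates those values. ESR1 was followed by C6 (0.974), FLG (0.964), LOC101929224 (0.958), BTBD16 (0.941) and FAM84B (0.940), and ESR1 itself exceeded 1 CPM in 2 of the 12 libraries.

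Genes tied to the members by function were taken as lists. Over all genes tested, DESeq2 called 716 of 15520 with dCas9-KRAB and 4767 of 16271 with dCas9-VPR. The fit with the replicate block called 507 and 4961 of them. No share of all genes was taken at an unadjusted p of 0.05, so list counts at that cut have no background. Of 20 estrogen receptor target genes, 17 were tested. With dCas9-KRAB, where ESR1 counts were higher, 0 were past the threshold in the main edgeR fit, where 2.77% of all genes tested were. At an unadjusted p of 0.05, 3 were, and DESeq2 and the edgeR fit with the replicate block each called 1. PGR, which encodes the progesterone receptor, had a log2 fold change of -1.27 (SE 0.650) and GREB1 of 0.12 (SE 0.112), neither past the threshold. With dCas9-VPR, where 28.0% of all genes tested were past the threshold, 5 rose and 3 fell in the main edgeR fit. DESeq2 called 8 of the 17 and the fit with the replicate block 9. Among those of the main fit were RARA (1.51, SE 0.154, edgeR adjusted p = 0.000228), a retinoic acid receptor, and RET (-1.64, SE 0.258, edgeR adjusted p = 0.00225), a receptor tyrosine kinase.

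Of 14 receptors and coregulators of the estrogen pathway, 12 were tested. With dCas9-VPR 1 rose and 2 fell in the main edgeR fit, where 28.0% of all genes tested were past the threshold. DESeq2 and the fit with the replicate block each called 4. With dCas9-KRAB 1 rose, where 2.77% of all genes tested were past the threshold. GATA3, a transcription factor, rose with dCas9-VPR (1.48, SE 0.288, edgeR adjusted p = 0.00617) and with dCas9-KRAB (1.47, SE 0.292, edgeR adjusted p = 0.0259). With dCas9-VPR, ESRRG (-1.16, SE 0.279, edgeR adjusted p = 0.0164) and NCOR1 (-0.37, SE 0.0915, edgeR adjusted p = 0.0188) fell. No other gene of this list was past the threshold in the main edgeR fit in either fusion.

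None of the 14 mitochondrial translation factors tested, the process RMND1 serves, was past the threshold in the main edgeR fit in either fusion. Of all genes tested, 28.0% were with dCas9-VPR and 2.77% with dCas9-KRAB. With dCas9-VPR 4 had an unadjusted p under 0.05, and DESeq2 and the edgeR fit with the replicate block each called 1. With dCas9-KRAB 3 had an unadjusted p under 0.05, and DESeq2 and the fit with the block each called 0. Of the other A-kinase anchoring proteins, the class AKAP12 belongs to, and the subunits of protein kinase A, 4 of 17 tested rose and 1 fell with dCas9-VPR, a share near the 28.0% over all genes tested. DESeq2 and the fit with the replicate block each called 6. AKAP3 (1.66, SE 0.217, edgeR adjusted p = 0.00088) and the regulatory subunit PRKAR2B (0.81, SE 0.128, edgeR adjusted p = 0.00222) rose, and the catalytic subunit PRKACB fell (-0.71, SE 0.147, edgeR adjusted p = 0.00796). With dCas9-KRAB 0 of 18 were past the threshold in edgeR, 2 had an unadjusted p under 0.05 and DESeq2 called 0.

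With dCas9-VPR recruitment, a fibroblast and stroma list of 5 markers summed to between 2989 and 3114 CPM, against 107.7 to 174.1 CPM in the dCas9-VPR controls. COL1A1 carried that sum, and COL1A2 did not exceed 0.266 CPM in any library. The trophoblast list, carried by HAND1, summed to between 145.5 and 279.5 CPM in the dCas9-VPR controls and between 4.42 and 15.8 CPM in the dCas9-KRAB controls. The part of these sums in the members' differences was not tested.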

How the data were processed

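Per the submitters' processing notes, base calling used CASAVA 1.8, adapters were trimmed with cutadapt 1.8.1, and reads were aligned with HISAT2 2.1.0 to hg38 and assigned to genes with featureCounts 1.4.6-p2. Which annotation and strand setting were used is not given in the sources used here. The authors deposited unnormalized read counts for each gene in each library, and a gene length column (another deposited value, in bp) was used only for CPM per kb. Replicates are described by the labels as independent biological replicates.

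The 6 members and all gene lists were chosen with earlier results of these data known. Counts were fitted with edgeR 4.0.16 (R 4.3.3; filterByExpr, TMM, quasi-likelihood F-test, two-sided) over all genes, with Benjamini-Hochberg adjustment and a threshold of 0.05. The 6 fits were recruitment against control in each fusion, their difference, the control lines between fusions (with array as covariate), and LTR5HS Sa against nontarget Sp in each fusion. The SE beside an edgeR log2 value is its absolute size divided by the square root of the F statistic. DESeq2 1.42.0, other normalizations and filters, single control arrays, a replicate block and leaving out each library were alternatives.

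Replicate numbers were checked for pairing: over 14554 genes, replicate differences correlated between arrays at r = 0.346 to 0.479 with dCas9-VPR and 0.199 to 0.538 with dCas9-KRAB, so the numbers, taken from the labels, pair the samples. The main fits carry no replicate term. The fit with the replicate block was the alternative. It is given where it changed a call of a member or the number of calls in a list upon recruitment. The recruitment, difference and control-line fits were run on simulated counts with the same dispersion for every gene and no correlation between replicates. Log2 changes of 1 were recovered in 64 of 90 genes for dCas9-VPR recruitment and 69 of 90 for dCas9-KRAB. They were recovered in 106 of 108 between control lines and 38 of 91 for the difference. The real replicates were correlated, so these shares may not hold for the real libraries.

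Guides were matched exactly to hg38 by own search. Of 5 sequence motifs, 4 were searched first, in the 300-base RefSeq promoter window of RMND1. The window was afterwards shortened to the 99 bases between the genes, and CACGTG was added after the sequence had been read. Genes named are the 6 members, neighbours past the threshold, at most 3 genes past it per other list and fusion with up to 2 that did not pass, and the 5 genes most correlated with ARMT1, RMND1 and ESR1 among those with a mean of 1 CPM or more (pseudocount 0.5). The 2 nearest genes outside the members were named for their position. Intervals of counts and the floor of 3 counts cover counting error only.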

Additional observations from a re-analysis of the deposited data

Results flagged for a closer look

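In the 4 dCas9-VPR control libraries, CCDC170 had 1 library apart from the others: nontarget Sp replicate 1 stood at 0.360 CPM (7 counts) and the rest between 0.0526 and 0.0994 CPM. Its gap to the nearest library was 0.848 of the whole range, above Dixon's critical value for 4 samples. Chance passes that value in about 1 of 20 groups.

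The differences of the recruitment effect between the fusions (dCas9-VPR minus dCas9-KRAB, log2) are listed because they passed the threshold in edgeR, as did 26.0% of all genes tested. They were 4.87 for ARMT1, 3.30 for RMND1, 2.51 for CCDC170, 0.86 for ZBTB2, -0.56 for AKAP12 and -4.77 for ESR1. The genes had been chosen with the contrasts behind this difference known, so the differences are description and no test is read from them. ESR1 had at most 6 counts in every dCas9-VPR library and entered the fit through dCas9-KRAB recruitment, and DESeq2 did not call CCDC170. Without dCas9-VPR nontarget Sp replicate 1 the ESR1 value was -3.08, with an SE of 74. The dCas9-VPR nontarget Sp library then left had 0 ESR1 counts, so this value is not a usable estimate.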

How the results depend on the processing

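Of 449 values, counts of members past the threshold stayed within 1.5 times in 72 alternatives and moved in 7. Leaving out 1 library gave 2 to 4 members with dCas9-VPR recruitment (2 without either recruitment replicate), 2 to 3 with dCas9-KRAB, 3 to 6 for the difference between fusions (3 without dCas9-VPR recruitment replicate 2), 3 to 4 between control lines, and 0 to 1 for LTR5HS Sa against nontarget Sp with dCas9-KRAB (1 without LTR5HS Sa replicate 1). That last count was 1 by DESeq2, 1 without a filter and 2 with the replicate block. The block changed no other call of a member. Values for single genes kept their side of the threshold in 325 cases, lost it in 27, gained it in 5 and turned in 13. ARMT1 with dCas9-VPR also lost it without a filter (0.42), with nontarget Sp alone as control (0.45) and with all 12 libraries in 1 fit (0.43). With at least 10 counts in every library ESR1 could not be tested.

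None of the values that turned was past the threshold. RMND1 between the control arrays with dCas9-VPR turned to 0.001588 with DESeq2 size factors, 0.001575 by DESeq2, 0.002864 without a filter, 0.00388 with at least 10 counts, 0.008933 with the block, and 0.2607 and 0.09442 without nontarget Sp replicate 1 and LTR5HS Sa replicate 2 (range when leaving out 1 library -0.2186 to 0.2607). ARMT1 there turned to -0.118 and -0.1557 without LTR5HS Sa replicate 1 and nontarget Sp replicate 2 (range -0.1557 to 0.2498), and ZBTB2 with dCas9-KRAB to -0.04603 and -0.09507 without the same 2 libraries of that fusion (range -0.09507 to 0.09546). With dCas9-KRAB recruitment ZBTB2 turned to 0.004321 without recruitment replicate 2 (range -0.3773 to 0.004321), and CCDC170 to 0.1418 with LTR5HS Sa alone as control. The cause was not tested.

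Over all genes, calls with dCas9-KRAB recruitment numbered 430, against 716 by DESeq2 and 507 with the replicate block. With dCas9-VPR recruitment they numbered 4548, against 4767 by DESeq2 and 4961 with the block. Between the control arrays they numbered 700 with dCas9-VPR and 226 with dCas9-KRAB, against 3824 and 1730 with the block, and 619 with dCas9-KRAB without a filter. Groups of 2 recruitment libraries, and counts of at most 45 for ESR1, limit the precision.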
